A study of Mus musculus with 6 samples.

Results

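The genes described here, apart from Ccdc141, encode muscle proteins of the intercalated disc and of the stretch-sensing parts of the sarcomere. They are the Xin repeat proteins Xirp1 and Xirp2, the LIM proteins Fhl1, Fhl2 and Csrp3, and the nebulin relative Nrap. The muscle ankyrin repeat proteins Ankrd1, Ankrd2 and Ankrd23 are also among them. The coiled-coil protein Ccdc141 was added by name, and whether it belongs to these structures was not tested. It is counted below with the intercalated disc and stretch-sensing genes. With Ccdc141, these are the 10 listed symbols that the platform annotation assigns to a probe set, of 19938 named genes in all. They lie on 14 of 28944 probe sets. The genes were chosen by protein family, and Ccdc141 by name, with the measured difference between 2MT and saline on these same arrays known. Every difference between 2MT and saline given for these genes is therefore a description, and no test of the 10 genes as a group was made.

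Left ventricle was taken from 10-week-old male C57BL/6 mice in 2 groups of 3 arrays each. The 2MT group was labelled as treated with 2-methyl-2-thiazoline, a small heterocyclic compound with a thiazoline ring, and the other group as treated with saline. The protocol text, which is the same for all 6 samples, describes a subcutaneous injection of 50 mg/kg 2-methyl-2-thiazoline and removal of the heart 4 h later. The route and volume of saline are not given in it. The study sought the mechanism by which the compound protects the heart. The labels do not say that each array came from its own mouse, so the errors and p-values below measure only how these samples scatter, which may be technical variation.

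The intercalated disc joins heart muscle cells end to end and holds the last sarcomere of each cell to the membrane. Xin proteins and Nrap sit at this junction and bind actin. Further inside the cell, the giant spring protein titin carries binding sites for LIM and ankyrin repeat proteins, which lie at the Z-disc and I-band and can also act in the nucleus. Several of these genes, Ankrd1 above all, are known for rising when heart muscle is stretched or overloaded.

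The values are the authors' log2 signals, 1 per probe set and array, and a difference of 1 is a doubling of signal. They ran from 0.51 to 13.5, with array medians between 4.32 and 4.37. A gene was taken as dim, and left out of the fit, when it averaged less than 4.345 over the 6 arrays, a floor set at the median probe set. All 8 cardiomyocyte markers (Myh6, Tnnt2, Tnni3, Myl2, Myl3, Actc1, Ryr2 and Pln) lay above that floor, and their mean level was 12.39 to 12.43 on the 2MT arrays and 12.39 to 12.40 on the saline arrays. Of 10 skeletal muscle markers, 8 were dim. Arrays of 1 group correlated at 0.992 to 0.995 across the 10547 genes tested, and arrays of different groups at 0.987 to 0.990. Saline 3 stood apart on the second principal component (17.7% of the variance, at -11.6 against -1.12 to 4.65 on the others) and had the highest mean of 3 erythrocyte markers, 5.97 against 5.04 to 5.38 on the other 5 arrays. Saline 2 had the highest mean of 5 atrial markers, at 6.10 against 5.45 to 5.58 on the others. The markers were split: Myl4, Myl7 and Sln were highest there (6.47, 4.95 and 3.56). Nppa was lowest there, at 9.91 against 10.21 to 10.59, and Nr2f2, at 5.63, lay within the range of the others. The parts of these cell contents in the results were not tested, and calls and counts that turn on 1 array are given without it beside the result. In tissue RNA, fewer cells of a type and less RNA per cell cannot be told apart.

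The 250 bases before the transcription start are shown for Fhl2, Ankrd1 and Ccdc141, whose groups did not overlap, with Xirp2 beside them as a member whose groups did. They come from RefSeq on GRCm38.p6, where 9 of the 10 genes, all but Xirp1, matched 13 windows. Capitals mark matches to the binding motifs of 3 factor families known for muscle genes (the M-CAT of TEAD factors, the CArG box of SRF, the MEF2 site) and the TATA box. The windows are chr1:43196762-43197011 and chr1:43163962-43164211 for Fhl2, chr19:36119845-36120094 for Ankrd1 and chr2:77170636-77170885 for Ccdc141, all on the minus strand, and chr2:67445752-67446001 for Xirp2, on the plus strand.
Fhl2, upstream start: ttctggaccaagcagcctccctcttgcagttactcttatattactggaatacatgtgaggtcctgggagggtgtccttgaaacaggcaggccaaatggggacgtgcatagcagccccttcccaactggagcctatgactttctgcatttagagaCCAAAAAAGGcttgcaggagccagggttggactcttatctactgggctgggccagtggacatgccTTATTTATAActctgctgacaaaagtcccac
Fhl2, downstream start: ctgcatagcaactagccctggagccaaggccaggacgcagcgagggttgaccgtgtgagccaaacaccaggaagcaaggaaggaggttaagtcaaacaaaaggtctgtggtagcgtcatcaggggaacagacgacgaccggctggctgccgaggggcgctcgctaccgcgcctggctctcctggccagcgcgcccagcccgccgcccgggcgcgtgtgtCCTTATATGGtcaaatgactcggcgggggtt
Ankrd1: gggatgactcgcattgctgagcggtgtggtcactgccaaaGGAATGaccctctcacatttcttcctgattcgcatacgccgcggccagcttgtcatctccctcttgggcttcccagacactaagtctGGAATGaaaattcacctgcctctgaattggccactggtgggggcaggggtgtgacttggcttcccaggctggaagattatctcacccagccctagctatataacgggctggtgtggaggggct
Ccdc141: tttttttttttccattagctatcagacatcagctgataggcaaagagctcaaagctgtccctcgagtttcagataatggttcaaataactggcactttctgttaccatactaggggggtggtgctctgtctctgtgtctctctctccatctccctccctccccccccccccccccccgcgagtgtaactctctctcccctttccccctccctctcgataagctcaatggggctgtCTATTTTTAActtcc
Xirp2: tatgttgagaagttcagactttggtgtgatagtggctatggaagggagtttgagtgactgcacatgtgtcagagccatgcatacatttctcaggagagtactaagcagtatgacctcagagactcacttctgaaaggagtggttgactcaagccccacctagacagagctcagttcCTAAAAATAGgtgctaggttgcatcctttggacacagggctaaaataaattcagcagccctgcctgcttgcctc
Both Fhl2 windows held a CArG box, 87 to 96 bases before the upstream start and 22 to 31 bases before the downstream one, and the first also held a MEF2 site at 22 to 31 bases. Ankrd1 held the M-CAT (letters CATTCC, read as GGAATG on the printed strand) at 118 to 123 and at 205 to 210 bases. Ccdc141 held a MEF2 site at 6 to 15 bases and Xirp2 one at 65 to 74 bases.

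Across the 13 windows of the members, a CArG box was found in 3 (both of Fhl2 and the first of Fhl1), a MEF2 site in 3 and the M-CAT in 2 (Ankrd1 and Ankrd23). The shares over all 32851 windows of this length were 1.47%, 2.92% and 12.6%. The GATA site AGATAA was in 4 of 13 windows (9.99% of all), the antioxidant response element TGACNNNGC in 3 (10.2%), the AP-1 site TGANTCA in 1 (6.75%) and TATAAA, searched on the given strand only, in 1 (7.59%), that of Ankrd2. The other motifs were searched on both strands, and no 2 matches in the members' windows shared a base. These matches are descriptions of letters. A MEF2 site stood before Fhl2 and Ccdc141, whose groups did not overlap, and before Xirp2, whose groups did. Likewise the CArG box stood before Fhl1 and the M-CAT before Ankrd23, and the groups of both genes overlapped.

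Of the 10 genes, 9 lay above the dim floor, and 3 of them (Xirp1, Fhl2 and Ccdc141) were higher in 2MT at an adjusted p under 0.05 in limma. Over all 10547 genes tested the share called was 4.63%, or 2.22% for higher in 2MT, and nothing is read from the members' count, since the list was made with this comparison known. None of the 9 was called lower, where 2.41% of all genes were. The groups did not overlap in 4 of the 9 (the same 3 and Ankrd1), each higher in 2MT, where 11.1% of all genes tested had every 2MT array above every saline array and 10.1% had every 2MT array below. The mean was higher in 2MT in 7 of 9, against 50.8% of all genes tested, and the median difference was 0.16, against 0.00 over all genes.

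**Figure D1:**
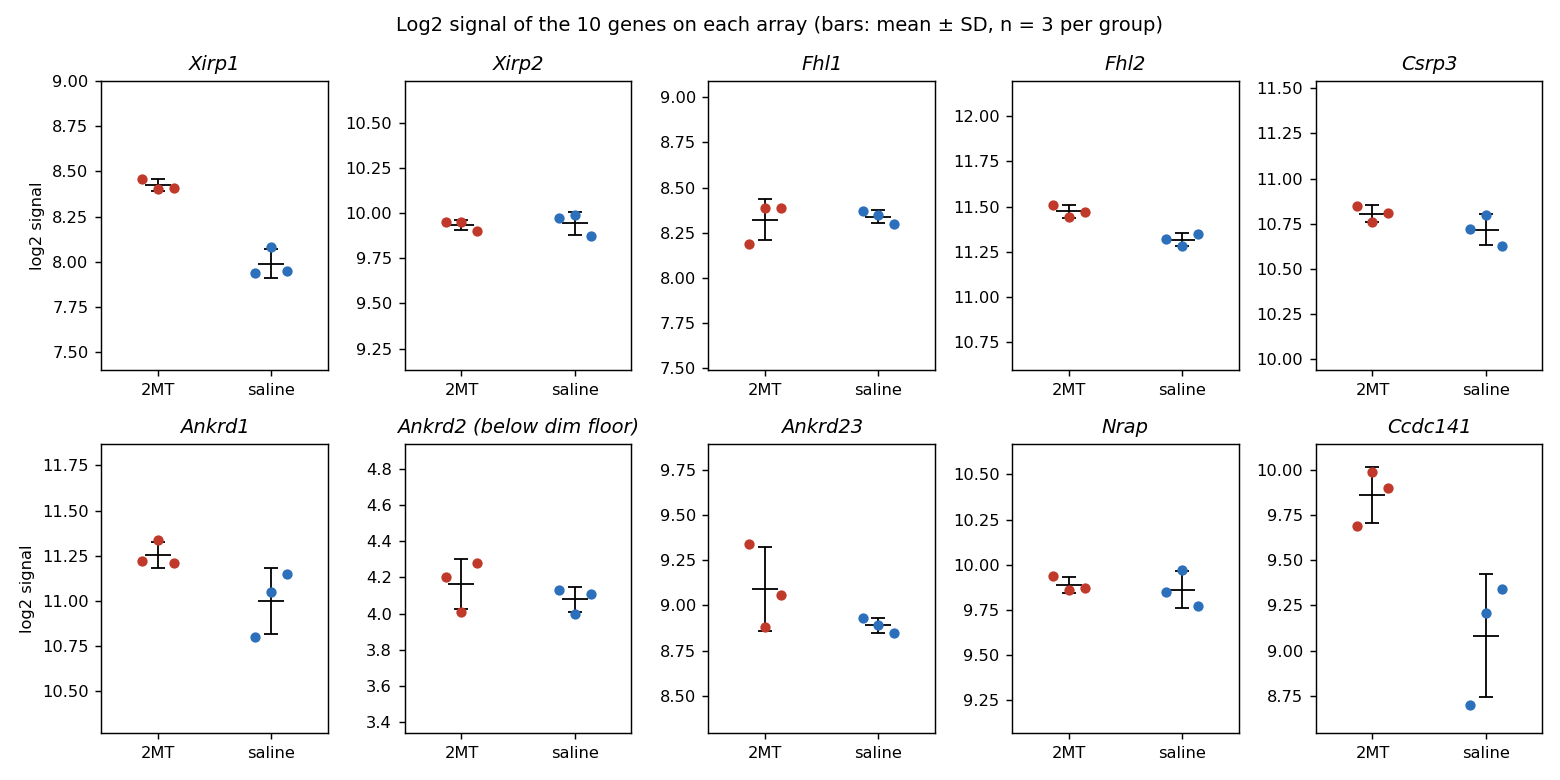
Log2 signal of each of the 10 genes (vertical axes, each spanning 1.6 log2 units) on the 3 2MT arrays (red, left) and the 3 saline arrays (blue, right), replicates 1 to 3 from left to right within a group, with the mean and SD as bars. The groups are apart for Xirp1, Fhl2, Ankrd1 and Ccdc141, and overlap for the other 6 genes, among them Ankrd2, which lies below the dim floor.

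Xirp1, or Xin, binds and bundles actin at the adherens junctions of the disc. Its signal was 8.46, 8.40 and 8.41 on 2MT arrays 1 to 3, against 7.94, 8.08 and 7.95 on saline arrays 1 to 3. All 2MT values lay above all saline values, with a gap of 0.32 between the groups. The means were 8.42 ± 0.03 in 2MT and 7.99 ± 0.08 in saline (SD, n = 3), a difference of 0.43 ± 0.06 (SE) or 1.35-fold, with an adjusted p of 0.000597 in limma. It kept its call in all 17 alternatives, with differences of 0.41 to 0.48 and adjusted p values of 0.000444 to 0.0118. Its size stood at the 98.0th percentile of all genes tested, and its spread within groups at the 17.8th.

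Xirp2, the second Xin repeat protein, is also found at the disc and is a known MEF2 target in mice. Its signal was 9.95, 9.95 and 9.90 on the 2MT arrays, against 9.97, 9.99 and 9.87 on the saline arrays. The 2MT values lay inside the saline range. The difference was -0.01, with a 95% interval from -0.11 to 0.09 (adjusted p = 0.945 in limma), whose upper end is below the lower end of the interval of Xirp1, 0.31 to 0.56. Whether the 2 relatives differed from each other was not tested.

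Nrap anchors the terminal actin filaments of myofibrils to the disc. It had 9.94, 9.86 and 9.87 on the 2MT arrays and 9.85, 9.97 and 9.77 on the saline arrays, with the 2MT values inside the saline range. The difference was 0.03, with a 95% interval from -0.09 to 0.15 (adjusted p = 0.87 in limma). Without saline 3 its sign turned, to -0.02, and that of Xirp2 turned without 2MT 3, saline 1 or saline 2 (0.01, 0.00 and 0.01).

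**Figure D2:**
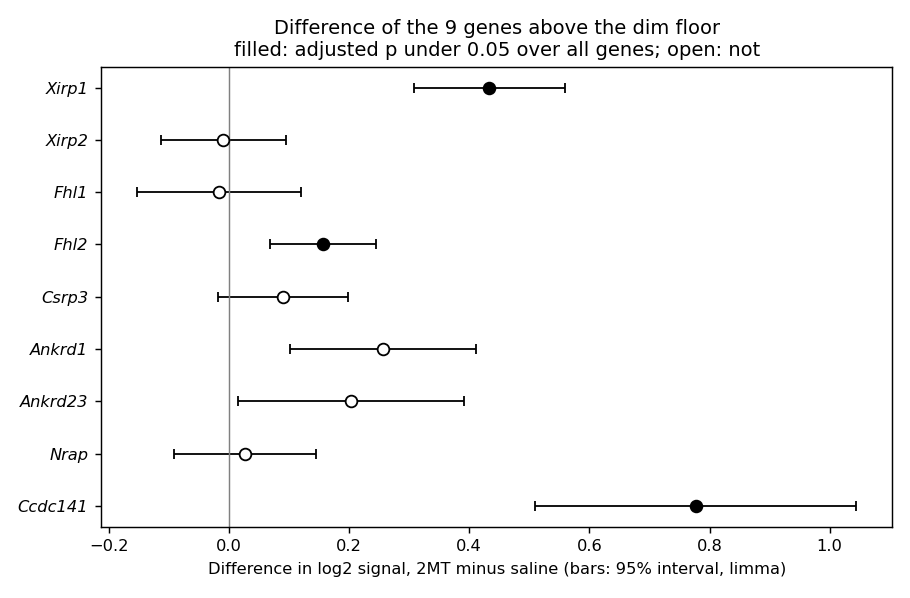
Difference in log2 signal, 2MT minus saline (horizontal axis), for the 9 genes above the dim floor, with 95% intervals from limma as bars, filled where the adjusted p over all genes tested was under 0.05. Ccdc141 (0.78) and Xirp1 (0.43) lie farthest to the right, and the intervals of Xirp2, Fhl1, Csrp3 and Nrap include 0.

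Fhl2 is a LIM-only protein that binds titin in the I-band and acts as a transcriptional cofactor. Its signal was 11.51, 11.44 and 11.47 on the 2MT arrays and 11.32, 11.28 and 11.35 on the saline arrays. The groups were apart by 0.09, and the spread within them was small, at the 3.7th percentile of all genes tested. The difference was 0.16 ± 0.04 (SE), or 1.12-fold (adjusted p = 0.045 in limma). That call was lost in 11 of 17 alternatives: without 2MT 1, 2 or 3 (adjusted p = 0.155, 0.0753 and 0.144), without saline 1 or 2 (0.11 and 0.15), with quantile normalization (0.0788), median centring (0.0606) or cyclic loess (0.0972), with no dim filter (0.0756), with every probe set tested (0.0766) and without the variance trend (0.266). The size itself ran from 0.13 to 0.17 over the 17.

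Fhl1, its relative, also binds titin and is known in mice for a part in the hypertrophic response to overload. It had 8.19, 8.39 and 8.39 on the 2MT arrays, against 8.37, 8.35 and 8.30 on the saline arrays. The groups overlapped, and 2MT 1 was the lowest of the 6. The difference was -0.02, with a 95% interval from -0.15 to 0.12 (adjusted p = 0.931 in limma), and without 2MT 1 it turned to 0.05.

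Csrp3, the muscle LIM protein of the Z-disc, had 10.85, 10.76 and 10.81 on the 2MT arrays and 10.72, 10.80 and 10.63 on the saline arrays. The groups overlapped through saline 2 and 2MT 2. The difference was 0.09, with a 95% interval from -0.02 to 0.20 (adjusted p = 0.378 in limma). It had the same sign in all 17 alternatives, at 0.05 to 0.13, and was called in none.

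Ankrd1, the cardiac ankyrin repeat protein, binds titin and myopalladin in the I-band and also enters the nucleus. Its signal was 11.22, 11.34 and 11.21 on the 2MT arrays, against 10.80, 11.05 and 11.15 on the saline arrays. The groups did not overlap, but the lowest 2MT array and saline 3 were 0.06 apart, and saline 1 was low. The means were 11.26 ± 0.07 in 2MT and 11.00 ± 0.18 in saline (SD, n = 3), a difference of 0.26 ± 0.07 (SE) or 1.20-fold, which did not pass (adjusted p = 0.0602 in limma). Leaving out saline 3, the array that stood apart, gave a difference of 0.33, which passed (adjusted p = 0.0144). Without saline 1 it was 0.16 (adjusted p = 0.183). The difference also passed with array weights (0.0348) and with the replicate block (0.0165), so that it passed in 3 of 17 alternatives in all.

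Ankrd23, the diabetes-related ankyrin repeat protein and a relative of Ankrd1, had 9.34, 8.88 and 9.06 on the 2MT arrays and 8.93, 8.89 and 8.85 on the saline arrays. The 2MT arrays spread widely and the saline arrays hardly at all (SD 0.23 and 0.04), and 2MT 2 lay inside the saline range. The difference was 0.20, with a 95% interval from 0.02 to 0.39 (adjusted p = 0.241 in limma). Without 2MT 1 it was 0.08, and without 2MT 2 it was 0.31 (adjusted p = 0.619 and 0.0598).

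Ankrd2, the third of the family and known mainly from slow skeletal muscle, was below the dim floor. It had 4.20, 4.01 and 4.28 on the 2MT arrays and 4.13, 4.00 and 4.11 on the saline arrays, and the groups overlapped. With no dim filter its difference of 0.08 had an adjusted p of 0.853 in limma.

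Ccdc141 is a coiled-coil protein known in mice for a part in neuronal migration, and its gene lies beside that of titin. It had 5 probe sets, and the brightest stood for the gene. Its signal was 9.69, 9.99 and 9.90 on the 2MT arrays, against 8.70, 9.21 and 9.34 on the saline arrays. The groups did not overlap, with saline 1 the lowest array. The means were 9.86 ± 0.15 in 2MT and 9.08 ± 0.34 in saline (SD, n = 3), a difference of 0.78 ± 0.12 (SE) or 1.71-fold (adjusted p = 0.00242 in limma). It kept its call in all 17 alternatives, at differences of 0.59 to 0.91 and adjusted p values of 7.01e-06 to 0.0292. Its size stood at the 99.6th percentile of all genes tested and its spread within groups at the 98.5th.

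All 5 probe sets of Ccdc141 were higher on every 2MT array than on any saline array, though by unequal amounts. Of all genes tested, each read by 1 probe set, 11.1% had every 2MT array above every saline array. The share over all probe sets was not computed. The groups of probe set 10484207 lay closest, at 8.66 on 2MT 1 and 8.59 on saline 2. Probe set 10484205 had 7.87, 8.32 and 8.13 on the 2MT arrays and 6.89, 7.43 and 7.42 on the saline arrays, a difference of 0.86 ± 0.15 (SE). Probe set 10484207 had 8.66, 8.69 and 8.70 on the 2MT arrays and 8.27, 8.59 and 8.37 on the saline arrays, a difference of 0.27 ± 0.08 (SE). The first was the largest of the 5 and the second the smallest, with 10484197, 10484201 and 10484203 between them at 0.51, 0.78 and 0.64. When every probe set above the floor was tested on its own, 4 of the 5 were called higher (adjusted p = 0.0144 to 0.025 in limma), where 1.31% of all 14480 were, and 10484207 was not (adjusted p = 0.091). Saline 1 was the lowest saline array in each of the 5, and 2MT 1 the lowest 2MT array. The 5 probe sets read 1 gene in the same samples and are not replicates.

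**Figure D3:**
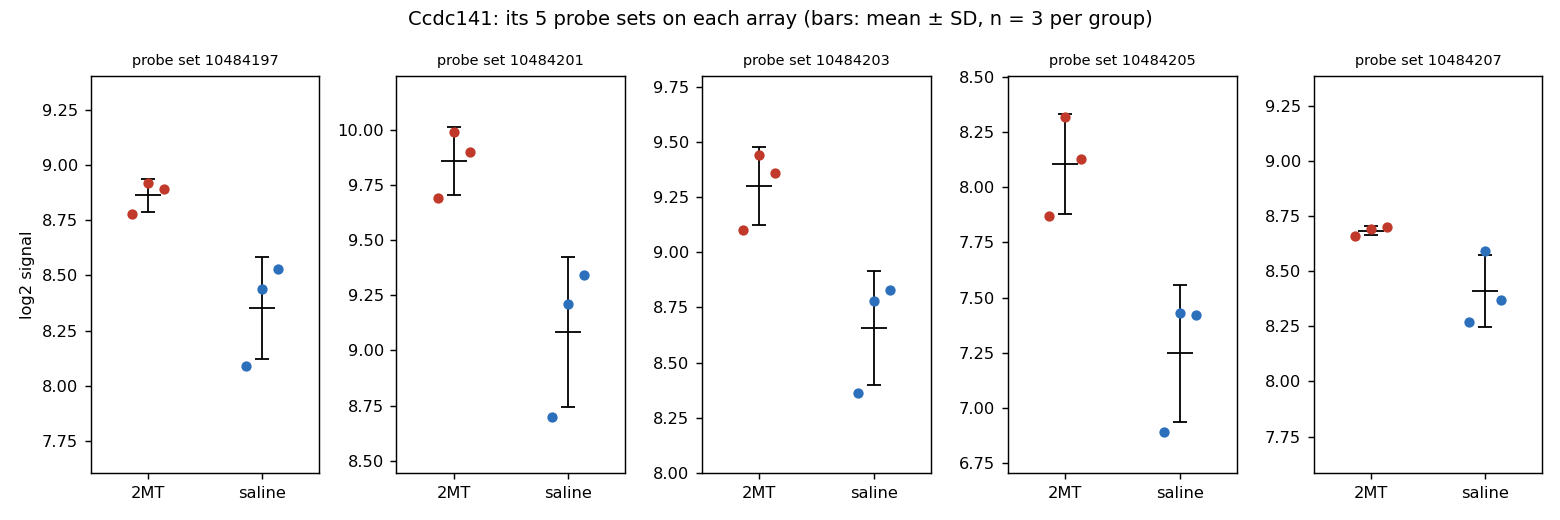
Log2 signal of the 5 probe sets of Ccdc141 (vertical axes, each spanning 1.8 log2 units) on the 3 2MT arrays (red, left) and the 3 saline arrays (blue, right), with mean and SD as bars. The groups are apart in each, with differences of 0.27 for probe set 10484207 up to 0.86 for 10484205.

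The arrays did not order the genes in the same way. Over the 9 genes above the floor, 2MT 1 was the highest 2MT array in 6 and the lowest in 2, and 2MT 2 the highest in 4 and the lowest in 5 (ties counted for each array). Of the saline arrays, saline 3 was the lowest in 5 and the highest in 3. The mean deviation of the 9 genes from their group means was -0.06 on saline 1 and 0.05 on saline 2, and within 0.01 on the other 4 arrays.

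The members lie on 6 chromosomes, with Ankrd1, Ankrd2 and Nrap on chromosome 19, Xirp2 and Ccdc141 on chromosome 2, and Fhl2 and Ankrd23 on chromosome 1. Of their 20 nearest protein-coding neighbours, 12 were tested and 0 were called in limma, with 1 at an unadjusted p under 0.05. Of all genes tested 4.63% were called, so nothing is read from a count over so few genes. Titin (Ttn), the neighbour of Ccdc141, was at 11.49 in 2MT and 11.44 in saline, a difference of 0.05 (adjusted p = 0.649), and was named here after its values were seen.

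For each called member, the 3 other genes with the nearest profile were found, by the root mean square distance over the 6 arrays after each gene was centred on its own mean. Gypc (0.02), Meis1 (0.05) and B4galt1 (0.05) were nearest to Xirp1, and all 3 were called higher. Slc2a4, P2rx5 and Commd6 were nearest to Fhl2, at distances of 0.02 each, and none of these was called, with differences of 0.15 to 0.18. B3galt2 (0.13), Ppargc1b (0.14) and Dusp7 (0.15) were nearest to Ccdc141, and all 3 were called higher. With 6 arrays and 10547 genes, near profiles are common, and the distances describe these arrays only. The distance was taken over the same arrays as the contrast. A near gene therefore has a similar difference, and its call is no separate result.

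**Figure D4:**
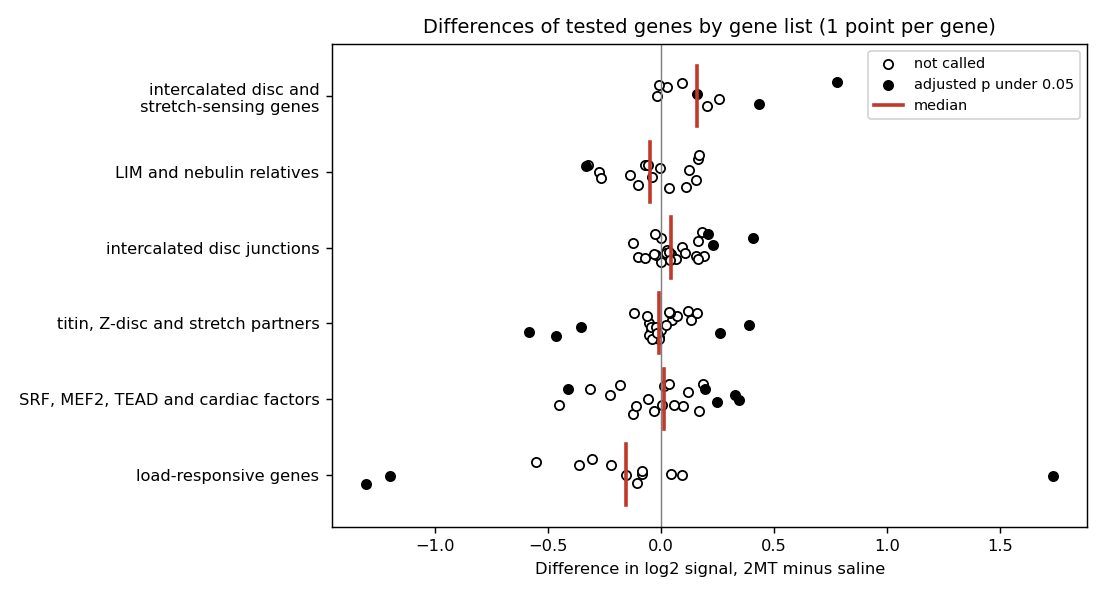
Difference in log2 signal, 2MT minus saline (horizontal axis), of each tested gene of the intercalated disc and stretch-sensing genes and of 5 other gene lists (rows), filled where the adjusted p was under 0.05, with the list's median as a red line. The medians lie between -0.15 for load-responsive genes and 0.16 for the intercalated disc and stretch-sensing genes, and the titin, SRF and load-responsive lists hold called genes on both sides of 0.

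Other genes of the same structures were read from lists chosen with earlier results of these data known. Of 24 tested genes of the disc's junctions, 3 rose and 0 fell, where 4.63% of all genes tested were called, and their median difference was 0.04. Cdh2, the N-cadherin that joins the cells, averaged 10.18 ± 0.03 on the 2MT arrays and 9.98 ± 0.03 on the saline arrays (SD, n = 3 each), a difference of 0.21 ± 0.04 (SE, adjusted p = 0.0162 in limma). Gja1, the gap junction protein connexin 43, rose by 0.41 ± 0.09 (adjusted p = 0.0164) and Popdc2, a membrane protein that binds cyclic AMP, by 0.23 ± 0.06 (adjusted p = 0.0475). Cdh2 lost its call without 2MT 2, 2MT 3 or saline 1 (adjusted p = 0.0745, 0.0789 and 0.0655), as did Gja1 (0.0897, 0.0814 and 0.0798). Popdc2 lost it without each array but saline 3 (0.116 to 0.175). Without the variance trend all 3 lost it (0.136, 0.0872 and 0.19 in that order), and with every probe set tested Gja1 and Popdc2 did (0.0553 and 0.0953). Popdc2 also lost it with quantile normalization (0.0517), cyclic loess (0.061) and no dim filter (0.0789), 10 of 17 alternatives in all. The list's count was 0 without 2MT 2, 2MT 3, saline 1 or the variance trend, and 1 with every probe set tested. It was 4 without saline 3, all higher in 2MT, the most over the alternatives.

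Of 25 tested partners of titin, the Z-disc and stretch sensing, 2 rose and 3 fell (4.63% of all genes tested were called), with a median of -0.01. Synpo2l, an actin-associated Z-disc protein, rose by 0.39 ± 0.07 (SE, adjusted p = 0.0065 in limma) and Nexn, the Z-disc protein nexilin, by 0.26 ± 0.05 (0.009). Synpo2, or myopodin, fell by 0.58 ± 0.06 (3.87e-05) and Myot, or myotilin, by 0.46 ± 0.07 (0.000876). Both are actin-binding Z-disc proteins. Trim54, a ubiquitin ligase of the sarcomere, was the fifth, named after its values were seen, and fell by 0.36 ± 0.08 (0.0157). Nexn lost its call without 2MT 3 (0.0578), and Trim54 without 2MT 1 or 2 or saline 1 or 2 (0.0683, 0.0549, 0.0724 and 0.0548). Both lost it without the variance trend (0.104 and 0.0872), where the list's count was 3, and Trim54 also with every probe set tested (0.05 after rounding).

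Of 16 tested LIM and nebulin relatives, 0 rose and 1 fell (4.63% of all genes tested were called), with a median of -0.05. It was Lims1, or PINCH1, an adaptor of integrin adhesions, which averaged 7.91 ± 0.05 on the 2MT arrays and 8.24 ± 0.06 on the saline arrays (SD, n = 3 each, adjusted p = 0.00427 in limma) and was called in all 17 alternatives. Without saline 3 the list's count was 2, both lower.

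Of 21 tested transcription factors and cofactors of muscle genes, 4 rose and 1 fell (4.63% of all genes tested were called), with a median of 0.01. Gata4, a cardiac zinc finger factor, rose by 0.34 ± 0.06 (SE, adjusted p = 0.00609 in limma), Tbx20 by 0.25 ± 0.06 (0.0227) and Myocd, the SRF coactivator myocardin, by 0.33 ± 0.08 (0.0253). Mrtfb, another SRF coactivator, fell by 0.41 ± 0.06 (0.00203). Mef2a, named after its values were seen, rose by 0.19 ± 0.05 (0.0418). Gata4 and Mrtfb were called in all 17 alternatives. Tbx20 lost its call without 2MT 1, 2 or 3 or saline 1 (0.0829, 0.0875, 0.0703 and 0.0937), Myocd without 2MT 1 or 3 or saline 1 or 3 (0.101, 0.0746, 0.0743 and 0.0636), and Mef2a without each array but saline 2 (0.0802 to 0.171). Without the variance trend all 3 lost it (0.107, 0.0863 and 0.179 in that order), and with every probe set tested Myocd and Mef2a did (0.0589 and 0.065). Mef2a also lost it with quantile normalization (0.0509), median centring (0.0619), cyclic loess (0.0579) and no dim filter (0.0735), 11 of 17 alternatives in all. The list's count was 2 without 2MT 1, 2MT 3, saline 1 or the variance trend, and 3 without 2MT 2 or with every probe set tested. Without saline 3 it was again 5, but only 2 of those were higher in 2MT and the rest lower.

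Of 13 tested genes listed as load-responsive, 1 rose and 2 fell (4.63% of all genes tested were called), with a median of -0.15. The list holds Ankrd11 (-0.08) and Mybpc2 (-0.15), named after their values were seen, and the median is the value of Mybpc2. Whether each listed gene responds to load in the heart was not tested. The mean was higher in 2MT in 3 of 13. Without saline 2 the number called was 4, with 1 higher and the rest lower. Without saline 3 it was 5, with 1 higher and 4 lower. Nppb, the B-type natriuretic peptide, averaged 8.57 ± 0.36 on the 2MT arrays and 6.83 ± 0.27 on the saline arrays (SD, n = 3 each, adjusted p = 1.26e-05 in limma). Of the matrix-associated growth regulators, Ccn1 fell by 1.20 ± 0.08 (SE) and Ccn2 fell by 1.30 ± 0.08. Ankrd1, itself known as a load-responsive gene, differed by 0.26 without a call, as given above.

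Among the cell type marker lists, 0 of 8 cardiomyocyte, 0 of 2 skeletal muscle, 0 of 3 atrial, 0 of 6 smooth muscle, 0 of 7 fibroblast, 0 of 7 macrophage and 0 of 2 erythrocyte markers tested were called in limma (0 at an unadjusted p under 0.05 in each of these lists). Of 7 endothelial markers, Pecam1 fell by 0.33 (adjusted p = 0.02), a call lost without 2MT 2, 2MT 3, saline 1 or saline 2 (0.0858 to 0.112), with every probe set tested (0.0524) and without the variance trend (0.0891). Kdr, named after its values were seen, was higher by 0.24 without overlap but not called (adjusted p = 0.157). The mean was higher in 2MT in 3 of these 7, and 2 had an unadjusted p under 0.05. The endothelial mean level was 7.57 to 7.76 on the 2MT arrays and 7.52 to 7.76 on the saline arrays. The mean level of the cardiomyocyte markers overlapped between the groups, as given above. The smooth muscle mean was 6.37 to 6.55 on the 2MT arrays and 6.43 to 6.51 on the saline arrays. Its list holds Des, its brightest gene (10.72 in 2MT and 10.75 in saline), which is also on the list of the disc's junctions. That count and mean are thus not of smooth muscle alone. The skeletal muscle mean was 3.64 to 3.75 and 3.60 to 3.70, with Myh1, Myh2, Myh4, Mylpf, Myod1, Myog, Mybpc1 and Actn3 under the floor. The atrial mean was 5.45 to 5.50 on the 2MT arrays and 5.50 to 6.10 on the saline arrays, with Sln and Myl7 under the floor, and without saline 2, the array where it was highest, Xirp1 and Ccdc141 were still called (adjusted p = 0.000937 and 0.00735) and Fhl2 was not (0.15).

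**Figure D5:**
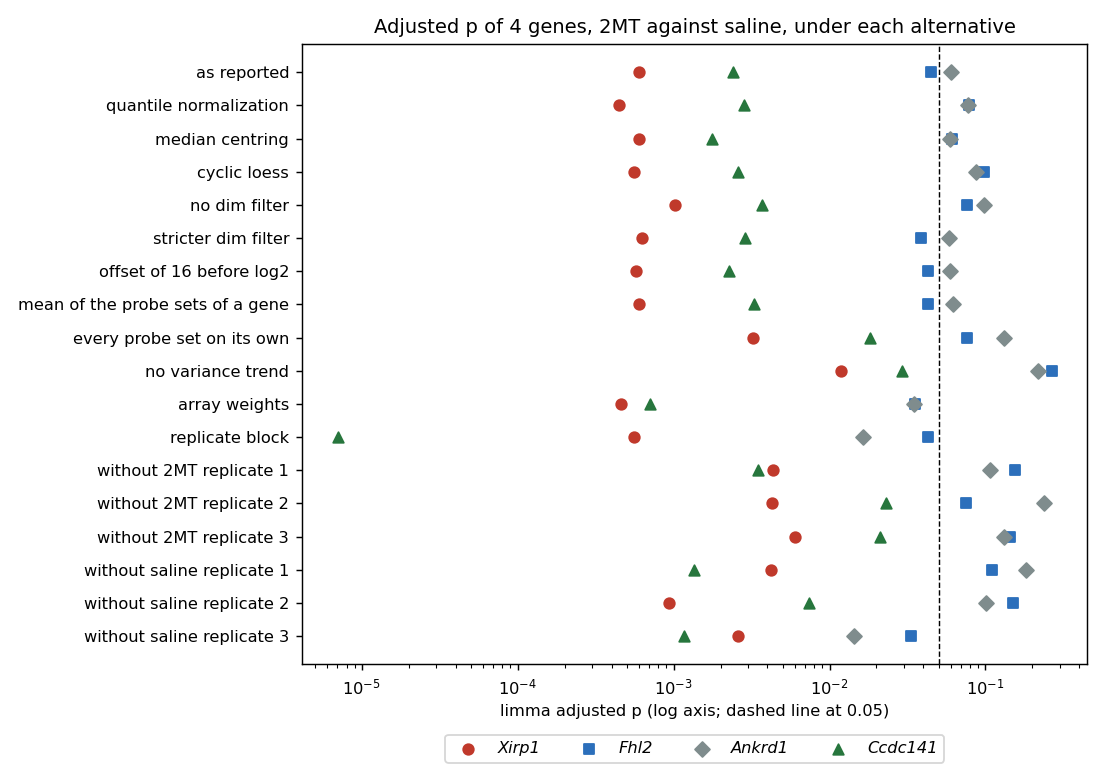
Limma adjusted p (horizontal log axis, dashed line at 0.05) of 4 genes for 2MT against saline, as reported (top) and under 17 alternatives (rows). Xirp1 and Ccdc141 stay left of the line in every row, Fhl2 crosses it in 11 rows, and Ankrd1 lies left of it with array weights, the replicate block and without saline 3.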

How the data were processed

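The authors deposited 1 value per probe set and array, taken here as log2 signal because values from 0.51 to 13.5 exceed no scanner's range on that base. The submitters' processing notes name MAS5 without saying what it did. Scaling between arrays, a genome build and detection calls are not given in the sources used here, so it is unknown how far a signal lies over background. For arrays there is no count depth, and their number limits the precision.

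Probe sets were named through the platform annotation (21789 with 1 symbol, 1621 with several, 5534 with none). Entrez IDs tied 21698 of those with 1 symbol to RefSeq genes, and 0 symbols needed updating. A gene was represented by its brightest probe set. Levels of different probe sets were not compared.

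Differences between 2MT and saline were fitted on all 6 arrays (limma 3.58.1, R 4.3.3: lmFit and trended eBayes, two-sided, no covariates), p-values were adjusted over 10547 genes by Benjamini-Hochberg, and genes under 0.05 were called. With 3 arrays a group, the smallest exact permutation p is 0.1. The procedure was tested on simulated data, and 17 alternatives changed the scaling, the dim filter, the offset, the choice of probe set, the variance model, the weights, a replicate block or the arrays included. The members and lists were chosen with earlier results of these data known. The text names all 10 members, up to 4 called genes of each list and the 3 genes nearest each called member. Promoter windows are from RefSeq (GRCm38.p6). Figures were drawn with matplotlib 3.10.9.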

Additional observations from a re-analysis of the deposited data

How the results depend on the processing

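Each choice was changed in turn in 17 alternatives. The number of genes called, 488, was 292 without the variance trend, 586 with the replicate block and between 262 and 648 with 1 array left out. The number of members called, 3, was between 2 and 4 under each of them. Xirp1 and Ccdc141 were called in all 17, and Fhl2 in 6. The replicate numbers were not shown to pair the samples: the deviations of same-numbered arrays correlated at 0.07, 0.04 and 0.02. Each 2MT array correlated best with the saline array of its own number, but saline 3 correlated better with 2MT 2 (0.04) than with its own number. The SE of Ccdc141 was 0.07 with the replicate block, against 0.12 as reported. Those of the other called members were slightly larger with it, at 0.0604 against 0.0584 for Xirp1 and 0.0418 against 0.0411 for Fhl2. Whether the samples were paired was not tested. With the replicate block 4 members were called, Ankrd1 being the fourth (adjusted p = 0.0165). Signs of near-zero differences turned in 5 cases. With 1 array left out, Xirp2 ran between -0.0467 and 0.0133, Fhl1 between -0.05 and 0.05, and Nrap between -0.02 and 0.08. The cause of these shifts beyond having fewer samples was not tested. With 3 arrays a group and no detection calls, small differences of dim genes such as Ankrd2 could not be resolved.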
